A study of Mus musculus with 2 samples.

Results

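Barcodes with the RNA of club cells, the secretory cells of the small airways, were picked out of single-cell libraries of 2 mouse small cell lung tumors, TKO1 and TKO2. They were selected on 1 transcript, as the barcodes with more than 200 detected genes and at least 10 unique molecular identifiers (UMIs, each standing for 1 captured RNA molecule) of Scgb1a1. By this rule 236 of 8307 barcodes were taken, 214 of 4496 in TKO1 and 22 of 3811 in TKO2. Members made up 4.76% of the barcodes of TKO1 (95% exact Clopper-Pearson interval 4.16% to 5.42%) and 0.577% of those of TKO2 (0.362% to 0.873%). These intervals and all others given here cover counting error only.

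Both mice were triple knockouts, in which Rb1, Trp53 and Rbl2 (the gene of p130) carry conditional alleles and were deleted in the lung by an adenovirus that expresses Cre from the CMV promoter, given into the trachea. The mice also carried the membrane-Tomato/membrane-GFP reporter at Rosa26, were of a mixed C57BL/6, 129/SVJ and 129/SvOla background, and were taken 7 months after induction at an age of 8 to 9 months. A tumor was cut out of each lung and digested, and live cells negative for the dye DAPI were sorted into 1 droplet library. The CMV promoter is not restricted to a cell type, so a club cell may or may not have been infected, and counts per gene do not show which cells lost the 3 alleles. There was 1 library per tumor, so tumor, mouse and library cannot be told apart and no test between conditions could be made. Sorting of live cells from a dissected tumor also sets which lung cells were kept, and a share of barcodes is not a share of the lung.

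Club cells line the bronchioles, secrete secretoglobins into the airway fluid and carry a high load of enzymes that convert inhaled and circulating foreign compounds. They are kept apart from the neuroendocrine fate by Notch signalling, in which a ligand on one cell binds a receptor on its neighbour, the receptor is then cut by proteases and its released part switches on Hes1, and they can renew themselves and give rise to ciliated cells. Small cell lung cancer is a neuroendocrine tumor, so that in these libraries most barcodes that were compared with the club-like ones held RNA of tumor cells. Pulmonary neuroendocrine cells lie in clusters in the airway wall, and a subset of club cells beside them is marked by uroplakin 3a.

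The libraries held 5285038 UMIs in 4514 barcodes for TKO1 and 8291430 UMIs in 3816 barcodes for TKO2. The 214 members of TKO1 held 298719 UMIs, with a median of 1153 UMIs (349 to 5705) and 508 genes per barcode. The other 4282 barcodes of TKO1 held 4977492 UMIs, with medians of 1023.5 UMIs and 676 genes. The 22 members of TKO2 held only 37219 UMIs (median 1495.5, 540 genes), against 8243936 UMIs in 3789 others (median 1874, 986 genes). UMIs were summed over each group and scaled to CPM (UMIs of a gene per 1000000 UMIs of that sum), so that 1 UMI was worth 3.35 CPM in the members of TKO1 and 26.9 CPM in those of TKO2. A level of a few UMIs in TKO2 is therefore loosely fixed. The median share of mitochondrial UMIs was 0.331% in members and 0.541% in others of TKO1, and the median share of ribosomal protein genes was 10.1% and 9.99%. In TKO2 the ribosomal share was 10.9% in members and 22.6% in others. The 2 libraries shared 22 barcode sequences of 14 bases, of which 2 were members in TKO1 and 0 in TKO2. Members of TKO1 also resembled each other in barcode sequence, since 17 of 342 pairs of barcodes with the same first 11 bases were both members and 5 held 1 member. With only 1 member kept of each such set (198 members), 363 genes were at least 2-fold higher and 2035 lower, against 354 and 2040 with all of them.

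Scgb1a1 lies on chromosome 19 (mm10, 9083636 to 9087958) and encodes the main secreted protein of the club cell. It took a median of 25.4% of all UMIs of a member in TKO1, from 0.634% to 70.3%, and 25.4% in TKO2, from 2.45% to 76.1%. Its summed level was 281797 CPM in members and 226 CPM in others of TKO1, and 263763 CPM and 12.9 CPM in TKO2, differences that the selection itself made. Most barcodes outside the rule held none, since 3474 barcodes of TKO1 and 3694 of TKO2 had 0 Scgb1a1 UMIs. In TKO1 the highest barcode outside held 9 UMIs and the lowest inside held 11, and in TKO2 these values were 3 and 16. The 25 barcodes of TKO1 with 5 to 9 UMIs had a median Scgb1a1 share of 0.680%, and 9 of them held a UMI of Scgb3a2, 8 of Hp and 0 of Cyp2f2. The 9 barcodes with 10 to 20 UMIs had a median share of 1.77%, and 4 held Scgb3a2, 4 held Hp and 0 held Cyp2f2. The minimum was far below the bulk of the members, because 159 of the 214 held at least 100 Scgb1a1 UMIs.

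**Figure D1:**
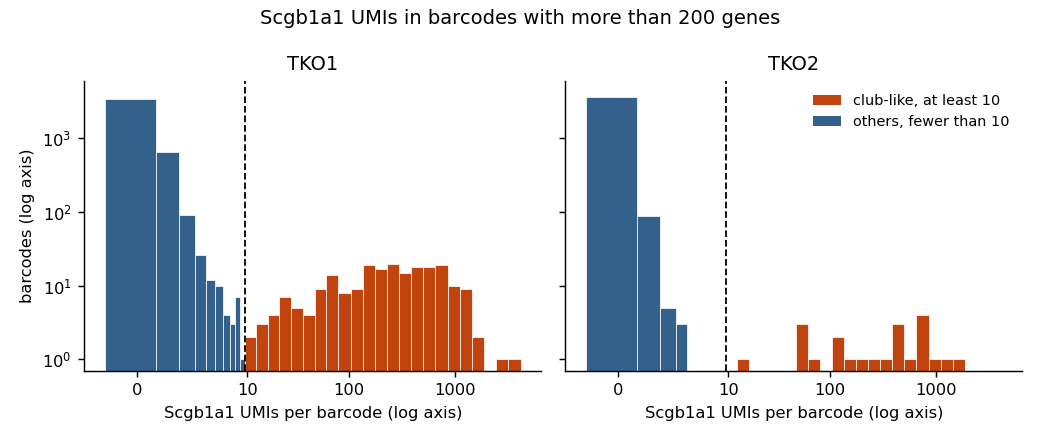
Number of barcodes (vertical, log axis) by Scgb1a1 UMIs per barcode (horizontal, log axis) in TKO1 and TKO2, with the minimum of 10 UMIs as a dashed line and club-like barcodes in red. The distribution of TKO1 is thin around the line, with 25 barcodes at 5 to 9 UMIs and 9 at 10 to 20, while no barcode of TKO2 lies between 3 and 16.

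The label was checked on the club cell markers that the rule did not use. Scgb3a2, a secretoglobin, stood at 12667 CPM in members and 18.7 CPM in others of TKO1, and at 13004 CPM and 0.970 CPM in TKO2. Scgb3a1, another secretoglobin (chromosome 11, 49663610 to 49665118), stood at 5236 and 3.82 CPM in TKO1 and at 3036 and 0.121 CPM in TKO2. Cyp2f2, the cytochrome P450 of the club cell (chromosome 7, 27119909 to 27133660), stood at 954 and 0.804 CPM in TKO1 and at 2176 and 0.243 CPM in TKO2. All 3 markers were far higher in members than in others of both tumors, and the barcodes are called club-like below. As log2 ratios the values of TKO1 were 9.41 for Scgb3a2 (95% exact interval 9.11 to 9.72), 10.42 for Scgb3a1 (9.77 to 11.16) and 10.21 for Cyp2f2 (8.84 to 12.10).

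The 5′ flanks of 3 leading genes are printed because they show where letters known from lung factors fall upstream of a secretoglobin, a P450 and a surfactant protein gene that were high together. The sequences are from RefSeq (GRCm38.p6, plus strand for all 3), begin 250 bases before the RefSeq transcription start, and leave out bases that GENCODE places inside the gene. Capitals mark matches to a forkhead motif (TGTTTNC), an NKX2-1 motif (CAAGNG) or a C/EBP motif (TTNNGNAA) on either strand, with no overlap among those shown.
Scgb3a1, chr11:49663345-49663594: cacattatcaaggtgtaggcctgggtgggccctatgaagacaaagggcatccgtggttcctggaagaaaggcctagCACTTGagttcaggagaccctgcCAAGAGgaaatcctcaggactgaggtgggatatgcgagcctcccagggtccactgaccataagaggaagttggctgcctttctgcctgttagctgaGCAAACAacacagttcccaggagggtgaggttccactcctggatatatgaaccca
Cyp2f2, chr7:27119705-27119908: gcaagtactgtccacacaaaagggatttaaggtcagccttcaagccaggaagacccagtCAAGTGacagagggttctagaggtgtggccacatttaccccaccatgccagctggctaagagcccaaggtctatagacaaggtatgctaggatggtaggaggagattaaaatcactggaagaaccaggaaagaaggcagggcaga
Sftpb, chr6:72304360-72304609: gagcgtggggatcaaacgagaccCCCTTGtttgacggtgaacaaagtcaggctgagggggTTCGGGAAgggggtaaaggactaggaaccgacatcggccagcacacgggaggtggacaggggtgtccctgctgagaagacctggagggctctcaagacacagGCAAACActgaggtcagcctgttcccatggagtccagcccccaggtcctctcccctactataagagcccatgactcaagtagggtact
Scgb3a1 and Sftpb each hold a forkhead match, 55 and 88 bases before the RefSeq start at its far end, and all 3 hold the NKX2-1 letters at least once. Of the 30 leading genes named below, 22 had a promoter in the RefSeq table. The NKX2-1 letters occurred in 14 of these 22 (63.6%) and in 40.5% of 27025 promoters of the same length, the forkhead letters in 5 (22.7%) and 17.9%, and the C/EBP letters in 8 (36.4%) and 36.9%. A match describes the letters of the window and is no evidence that a factor binds there.

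Over all genes with an average of at least 20 CPM in the 2 groups of TKO1 (6056 genes), 354 were at least 2-fold higher in club-like barcodes, 5.85% of those compared, and 2040 were at least 2-fold lower, 33.7%. The median gene had a log2 ratio of −0.68, on a scale where Scgb1a1 alone took 281797 CPM of the club-like sum. Relative to this median gene, 793 genes were at least 2-fold higher (13.1%) and 652 at least 2-fold lower (10.8%). Higher genes were 14.8% of the genes past 2-fold in CPM, and 51.8% of them with edgeR's TMM scaling, so the split between higher and lower depends on the scale. A list with a median between −0.68 and 0 lay below 0 in CPM but above the median gene, as did the antioxidant, transcription factor, junction, stress and secretory pathway lists. In TKO2 the median was 0.02, and 1308 of 5576 genes were at least 2-fold higher in club-like barcodes, 23.5%, a share that includes many genes with a handful of UMIs. All folds describe these libraries and none has a p-value, and the count of a list is set beside these background shares.

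The 30 genes with the largest ratio among those above 100 CPM in either group of TKO1 were, from the top, Cyp4b1, Scgb3a1, Scgb1a1, Cyp2f2, Calml3, Sfta2, Scgb3a2, Fmo2, Cbr2, Cldn10, Pon1, Gsta4, Gabrp, Chad, Slc34a2, Retnla, Iyd, Sftpd, Rasl11a, Fmo1, Sftpb, Pnliprp1, Tspan11, Aqp5, Ager, Hp, Clic3, Gsta3, Mettl7a1 and Ppic. The smallest of these ratios was 118-fold. Of the 30, 7 belong to the list of xenobiotic metabolism, 3 to airway secretions and mucosal defence and 4 to the alveolar lists, and 12 belong to no list. Among the 12, Calml3, a calmodulin-like protein, stood at 208 and 0.201 CPM, Gabrp, a GABA receptor subunit, at 164 and 0.603 CPM, and Chad, the matrix protein chondroadherin, at 261 and 1.00 CPM. Of the 30 genes, 28 reached an average of 20 CPM in TKO2, and all 28 were at least 2-fold higher in club-like barcodes there. This count is no independent check, because 2 UMIs in the club-like barcodes of TKO2 are enough to reach that average, and a gene that reached it in this way had to be higher. Fmo1 did so on 2 UMIs and Iyd and Pnliprp1 on 3 each. Gsta3 (1 UMI in the club-like barcodes) and Slc34a2 (0 UMIs) did not reach it.

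**Figure D2:**
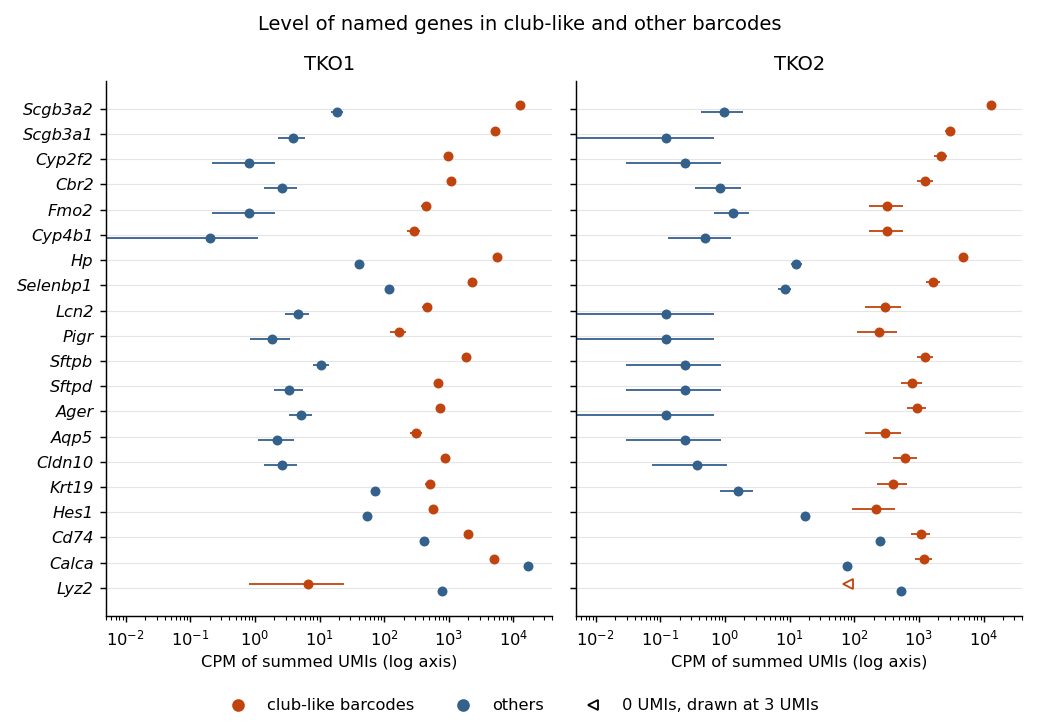
CPM (log axis) of 20 genes in club-like barcodes (red) and others (blue) of TKO1 and TKO2, points with exact Poisson 95% intervals, which run off the left edge where others held 1 UMI. Secretoglobin, enzyme, defence and surfactant genes lie far to the right in club-like barcodes of both tumors, whereas Calca is lower in club-like barcodes of TKO1 (5055 against 16490 CPM) and higher in those of TKO2 (1182 against 77.0 CPM).

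Enzymes of xenobiotic metabolism were the broadest group. Of 28 listed genes, 16 reached the level for comparison in TKO1, of which 14 were at least 2-fold higher, 1 was at least 2-fold lower and 1 lay between, with a median log2 ratio of 3.34 against −0.68 for all genes. Of the 14, 12 reached that level in TKO2, where 11 were at least 2-fold higher in club-like barcodes. Gsto1 was less than 2-fold higher there on 1 UMI. As with the leading genes, reaching that level in TKO2 took only 2 UMIs in club-like barcodes, so this count is no independent check. Of all genes compared in TKO2, 23.5% were at least 2-fold higher. Cyp4b1, a P450 that activates arylamines and furans, stood at 285 CPM in club-like barcodes and 0.201 CPM in others of TKO1, where the others held 1 UMI (log2 ratio 10.47, 7.95 to 15.79), and at 322 and 0.485 CPM in TKO2. Fmo2, the flavin monooxygenase of the lung, stood at 442 and 0.804 CPM in TKO1 and at 322 and 1.33 CPM in TKO2. Fmo1 had 34 UMIs in club-like barcodes and 0 in others of TKO1, which makes it at least 189-fold higher with the others set at 3 UMIs over the group. Cbr2, a carbonyl reductase of the lung, stood at 1098 and 2.61 CPM in TKO1 and at 1263 and 0.849 CPM in TKO2. Por, which passes electrons to all microsomal P450 enzymes, was high in both groups by comparison, with 345 and 80.6 CPM in TKO1 and 403 and 25.7 CPM in TKO2.

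The conjugating enzymes covered a wide range. The glutathione transferase Gsta4 stood at 331 CPM in club-like barcodes and 1.21 CPM in others of TKO1 (log2 ratio 8.10, 6.93 to 9.58) and at 134 and 0.121 CPM in TKO2. Gstm1 stood at 710 and 146 CPM in TKO1 (2.28, 2.05 to 2.50) and at 1048 and 17.1 CPM in TKO2. Gsto1, Gstt1, Gstm2 and the epoxide hydrolase Ephx1 lay between these 2, with log2 ratios of 2.90, 2.97, 3.70 and 2.47. The exceptions in TKO1 were Aldh1a7, an aldehyde dehydrogenase, at 13.4 and 64.9 CPM, and the carboxylesterase Ces1d at 418 and 352 CPM. In TKO2, Ces1d stood at 161 and 4.25 CPM, on 6 UMIs in club-like barcodes. No RNA was detected for Cyp2b10, Adh1, Adh7, Ces1f, Gstp1 and Sult1d1, each at 0 UMIs in the club-like barcodes of TKO1. Aldh1a1, a retinaldehyde dehydrogenase, stood at 13.4 and 25.5 CPM and rested on 4 UMIs. Pon1, the serum paraoxonase, is in no list and had 51 UMIs in club-like barcodes and 0 in others, at least 283-fold higher.

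The antioxidant genes, which handle peroxides and glutathione, did not stand with the enzymes above. Of 12 compared, 4 were at least 2-fold higher and 1 lower in TKO1, and their median was −0.22. Catalase (Cat) stood at 100 CPM in club-like barcodes and 3.42 CPM in others of TKO1, Gss at 110 and 20.5 CPM, Prdx6 at 556 and 179 CPM, and Gpx2 at 134 and 64.7 CPM. In TKO2, Cat stood at 161 and 5.70 CPM. The peroxiredoxin Prdx1, the most abundant of the list, stood at 887 and 1365 CPM in TKO1.

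Secreted and defence proteins formed the second large group. Of 30 listed genes, 15 were compared in TKO1, 11 were at least 2-fold higher and 0 lower, with a median log2 ratio of 5.11. Hp, which encodes the haemoglobin scavenger haptoglobin, was the most abundant of them at 5530 CPM in club-like barcodes and 41.0 CPM in others of TKO1, and at 4890 and 12.7 CPM in TKO2. Macrophage-rule barcodes, defined among the others by at least 5 UMIs over C1qa, C1qb, C1qc, Tyrobp, Fcer1g and Cd68 (111 in TKO1), held Hp at 229 CPM. Selenbp1, a selenium-binding protein, stood at 2286 and 120 CPM in TKO1 and at 1666 and 8.37 CPM in TKO2. Lcn2, which sequesters bacterial iron carriers, stood at 455 and 4.62 CPM in TKO1 and at 296 and 0.121 CPM in TKO2. Pigr, the receptor that carries IgA across the epithelium, stood at 167 and 1.81 CPM in TKO1 and at 242 and 0.121 CPM in TKO2. The antibacterial transferrin Ltf rested on 29 UMIs in club-like barcodes of TKO1 (97.1 and 0.201 CPM) and had 0 UMIs in those of TKO2.

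Wfdc2, a protease inhibitor of airway fluid, stood at 867 CPM in club-like barcodes and 496 CPM in others of TKO1, less than a 2-fold difference (log2 ratio 0.81, 0.61 to 0.99), but at 1209 and 11.6 CPM in TKO2. The level in club-like barcodes was similar in the 2 tumors and that in the others was not. Under the alternatives run, the log2 ratio of Wfdc2 in TKO1 rose to as much as 1.37, past 2-fold, so it depends on the scale. Among the other listed secretory genes, Bpifa1, Bpifb1, Muc5ac, Muc16, Agr2, Reg3g, Chil4, Ccl20, Msln and Dmbt1 each had 0 UMIs in the club-like barcodes of TKO1, while Lypd2 had 11, Tff2 had 5 and the membrane mucin Muc1 had 92. Muc5b, the mucin of the normal mouse airway, had 7 UMIs in TKO1 and 2 in TKO2.

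Among the genes singled out after their values were seen, Upk3a is the marker of the club cell subset beside neuroepithelial bodies. It held 585 UMIs in the club-like barcodes of TKO1, 1958 CPM against 23.1 CPM in others (log2 ratio 6.41, 6.12 to 6.71), and 41 UMIs in those of TKO2, 1102 CPM against 6.07 CPM. Without a fixed depth, 137 of the 214 club-like barcodes of TKO1 (64.0%) held a UMI of Upk3a.

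Surfactant proteins and some alveolar markers were also high. Sftpb, a surfactant protein that club cells also make, stood at 1835 CPM in club-like barcodes and 10.6 CPM in others of TKO1, and at 1263 and 0.243 CPM in TKO2. Sftpd, a collectin that binds microbes, stood at 680 and 3.42 CPM in TKO1 and at 779 and 0.243 CPM in TKO2. The defining alveolar type 2 gene Sftpc was close to absent, with 8 UMIs (26.8 CPM) in club-like barcodes against 17.5 CPM in others of TKO1 and 0 UMIs in the club-like barcodes of TKO2. Sftpa1 had 4 UMIs and Lamp3 had 7 in TKO1. Of the alveolar type 2 list, 7 of 12 genes were compared and 4 were at least 2-fold higher (Sftpb, Slc34a2, Napsa and Cxcl15), with a median of 2.98. Of the alveolar type 1 list, 4 of 10 were compared and 2 were at least 2-fold higher, with a median of 4.02. These medians of few genes moved with the settings, from 1.94 to 7.70 for type 2 and from 3.88 to 7.68 for type 1. The type 2 extremes came with another filter on low genes. The 2 type 1 genes were Ager, a receptor abundant in alveolar type 1 cells (720 and 5.22 CPM in TKO1, 940 and 0.121 CPM in TKO2), and the water channel Aqp5 (311 and 2.21 CPM in TKO1, 296 and 0.243 CPM in TKO2). The other 2 type 1 genes compared in TKO1 were less than 2-fold apart, Emp2 at 157 and 82.2 CPM and Vegfa at 67.0 and 39.4 CPM. Of those below the level for comparison, Clic5 had 9 UMIs in club-like barcodes, Hopx, Pdpn and Rtkn2 had 1 each, and Cav1 and Akap5 had 0.

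Both alveolar and club cell genes were unevenly spread over the club-like barcodes. Ager was found in 76 of the 214 club-like barcodes of TKO1, and the 22 barcodes with most held 64.7% of its UMIs. This was close to the 65.2% of Scgb3a1 and the 62.4% of Cyp4b1. It was above the 50.5% of Cyp2f2, the 48.3% of Sftpd and the 41.2% of Cldn10. Slc34a2, the phosphate transporter of alveolar type 2 cells, was found in 16 barcodes with at most 7 UMIs each, and Sftpb in 135 barcodes. Whether Ager and Slc34a2 RNA came from the same cells as Scgb1a1 was not tested.

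**Figure D3:**
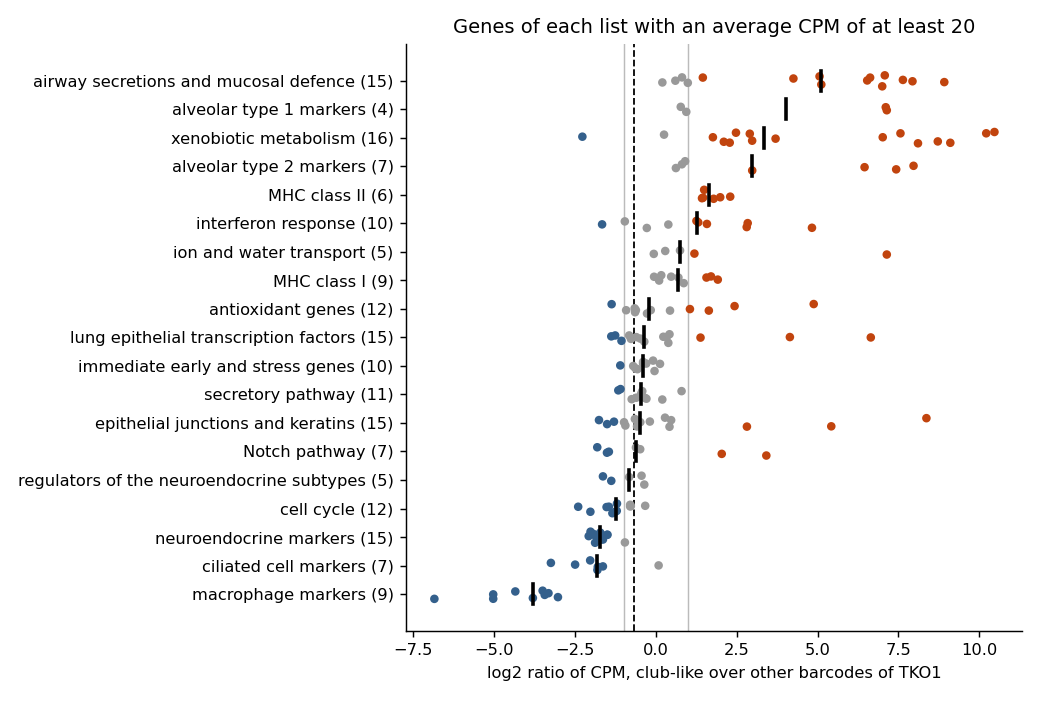
Log2 ratio of CPM, club-like over other barcodes of TKO1, for each listed gene with an average of at least 20 CPM (points, with random vertical scatter). Lists with at least 3 such genes are shown, without the club cell markers, and the number of genes is in brackets. Black bars are list medians, and the dashed line is the median of all 6056 genes (−0.68). Mucosal defence, alveolar and xenobiotic genes have medians above 2.9, and the macrophage list has the lowest median at −3.81.

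Besides the club cell markers, 19 lists had at least 3 genes compared, of which 6 had a median at least 2-fold higher in club-like barcodes and 4 at least 2-fold lower, or 8 and 3 relative to the median gene. Epithelial junctions and keratins were mixed, with 3 of 15 genes at least 2-fold higher and 3 lower (median −0.49). Cldn10, a claudin of club cells, stood at 860 CPM in club-like barcodes and 2.61 CPM in others of TKO1 and at 618 and 0.364 CPM in TKO2. Cldn18 stood at 60.3 and 1.41 CPM in TKO1 and had 0 UMIs in the club-like barcodes of TKO2. The keratin Krt19 stood at 512 and 72.9 CPM in TKO1 and at 403 and 1.58 CPM in TKO2. Krt7 and Krt8 were at least 2-fold lower in TKO1 in CPM (log2 ratios −1.51 and −1.30). With all club-like barcodes they were less than 2-fold lower relative to the median gene (−0.84 and −0.62). In the 137 with less neuroendocrine RNA, described below, they stood at 337 and 321 CPM, against 2043 and 1417 CPM in others. Relative to the median gene of that comparison (−1.07) both were at least 2-fold lower. In TKO2 both had positive ratios (0.68 and 1.25). Epcam and Cdh1, the general epithelial adhesion genes, had ratios of −0.95 and −0.99 in TKO1.

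Markers of the other airway cell types were low in TKO1. Of 12 ciliated cell genes, 7 were compared in TKO1, of which 6 were at least 2-fold lower and 0 higher. They summed to 104 CPM in club-like barcodes and 435 CPM in others, and Ccdc153, Tmem212, Fam183b and Tekt1 had 0 UMIs in the club-like barcodes. Foxj1, the regulator of ciliogenesis, had 4 UMIs in club-like barcodes, 13.4 against 47.0 CPM. In TKO2 the ciliated list summed to 1021 CPM in club-like barcodes and 36.8 CPM in others, and 31 of its 38 UMIs in club-like barcodes came from 1 barcode. Of 8 basal cell genes none reached the level for comparison, and Krt5, Krt14, Trp63, Krt15, Krt17 and Ngfr had 0 UMIs in club-like barcodes of TKO1. The ion and water transport list had 5 genes compared, 2 of them at least 2-fold higher, Aqp5 and the sodium channel subunit Scnn1a (97.1 and 42.6 CPM). In the 137 club-like barcodes of TKO1 with less neuroendocrine RNA, described below, Scnn1a stood at 76.1 CPM, less than 2-fold higher (log2 ratio 0.84). Cftr had 4 UMIs in club-like barcodes and 0 in others.

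Transcription factors of the lung epithelium lay closer together than the secreted proteins and enzymes. Of 15 compared, 3 were at least 2-fold higher in TKO1 (Sox9, Ehf and Irx3) and 3 lower (Foxa1, Foxp1 and Sox2), with a median of −0.36. Relative to the median gene 6 were at least 2-fold higher and 0 lower. With all club-like barcodes the 3 lower calls thus rest on the scaling. In the 137 with less neuroendocrine RNA, described below, Foxa1, Foxp1 and Sox2 stood at 16.3, 43.5 and 59.8 CPM. These levels rested on only 3, 8 and 11 UMIs. The levels of these 3 genes in others of TKO1 were 96.0, 369 and 175 CPM. Relative to the median gene of that comparison (−1.07), Foxa1 and Foxp1 were at least 2-fold lower and Sox2 was not. Nkx2-1, the lung lineage factor, was found on both sides, at 281 CPM in club-like barcodes and 481 CPM in others of TKO1, and at 322 and 130 CPM in TKO2. Foxa2, a forkhead factor of the airway, stood at 124 and 220 CPM in TKO1. Sox9, a factor of the distal lung bud, had 18 UMIs in club-like barcodes of TKO1 and 0 in others (60.3 CPM against 0), but 0 UMIs in the club-like barcodes of TKO2. Irx3 stood at 121 and 6.83 CPM in TKO1 and had 1 UMI in club-like barcodes of TKO2. The epithelial ETS factor Ehf stood at 137 and 52.8 CPM in TKO1. In the club-like barcodes with less neuroendocrine RNA it stood at 92.4 CPM, less than 2-fold higher than in others (log2 ratio 0.81).

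In the Notch pathway, 2 of 7 genes compared were at least 2-fold higher and 3 lower in TKO1, or 2 and 1 relative to the median gene. The 2 higher were targets of the pathway. Hes1, a repressor switched on by Notch, stood at 569 CPM in club-like barcodes and 53.4 CPM in others of TKO1 (log2 ratio 3.41, 3.13 to 3.70), and at 215 and 17.5 CPM in TKO2 on 8 UMIs. Nrarp, which feeds back on the pathway, stood at 97.1 and 23.7 CPM in TKO1 and at 107 and 20.5 CPM in TKO2 on 4 UMIs. The receptor Notch1 had 11 UMIs in club-like barcodes, 36.8 against 0.402 CPM, but its average fell below the level for comparison. Notch2 and Jag1 had 1 UMI each in club-like barcodes. On the neuroendocrine side, the inhibitory ligand Dll3 stood at 20.1 and 57.5 CPM and Hes6, which opposes Hes1, at 167 and 590 CPM. Rbpj, the DNA-binding partner of the receptor, rested on 4 UMIs.

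Rest, the repressor of neuronal genes and the only one of 5 listed regulators of the non-neuroendocrine subtype that could be compared, stood at 43.5 CPM in club-like barcodes (13 UMIs) and 1.61 CPM in others of TKO1, and at 53.7 CPM (2 UMIs) and 0.849 CPM in TKO2. In the Hippo pathway 2 genes were compared. The YAP target Cyr61 stood at 63.6 and 3.01 CPM in TKO1 and had 0 UMIs in club-like barcodes of TKO2. Tead1 stood at 16.7 and 34.0 CPM in TKO1 and, on 5 UMIs, at 134 and 22.4 CPM in TKO2. The coactivators themselves were at the limit of the depth, with 3 UMIs of Yap1 and 6 of Wwtr1 in club-like barcodes of TKO1.

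Among antigen presentation genes, the median of the MHC class II list was at least 2-fold higher in TKO1 in CPM. That of the MHC class I list was not. Relative to the median gene both were (2.31 for class II and 1.37 for class I), so this contrast depends on the scale. All 6 MHC class II genes compared in TKO1 were at least 2-fold higher (median 1.64), and 5 of them were also at least 2-fold higher in TKO2. Without the club-like barcode of TKO2 that held most UMIs of each gene, 2 of these 5 stayed at least 2-fold higher, Cd74 at 864 against 246 CPM and H2-DMa on 2 UMIs, whereas H2-Aa stood at 307 against 179 CPM, H2-Ab1 at 307 against 166 CPM and H2-DMb1 had 0 UMIs. Cd74, the invariant chain, stood at 2002 CPM in club-like barcodes and 408 CPM in others of TKO1 and at 1075 and 246 CPM in TKO2. The others include macrophage-rule barcodes, which held Cd74 at 9708 CPM in TKO1. Without these 111 barcodes the median log2 ratio of the list was 3.24. Macrophage markers summed to 30.1 CPM in club-like barcodes, 1880 CPM in others and 60542 CPM in macrophage-rule barcodes of TKO1. Of the 17 markers, 11 had 0 UMIs in club-like barcodes of TKO1 and the most abundant, Lyz2, had 2 UMIs there. In TKO2 the markers summed to 376 CPM in club-like barcodes, on 14 UMIs in 2 barcodes. There they summed to 56077 CPM in macrophage-rule barcodes and 54.0 CPM in the remaining ones. Of the MHC class I list 3 of 9 were at least 2-fold higher, 0 were lower and the other 6 lay between (median 0.69). Relative to the median gene 6 of 9 were at least 2-fold higher and 0 lower. In TKO2 this list summed to 6475 CPM in club-like barcodes and 775 CPM in others. H2-K1 stood at 1687 and 449 CPM and B2m at 2665 and 819 CPM in TKO1. Of 10 interferon response genes, 6 were at least 2-fold higher and 1, Usp18, was lower (median 1.28). Bst2, which tethers viruses to the cell, stood at 157 and 22.5 CPM and Ifit3 at 56.9 and 2.01 CPM in TKO1.

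At a fixed depth of 1000 UMIs per barcode, 129 club-like, 64 macrophage-rule and 2164 remaining barcodes of TKO1 could be compared, and 85, 47 and 2007 shallower ones were left out. Before thinning their median depths were 1654, 1436.5 and 1389 UMIs. Scgb3a2 was found in 89.1% of the club-like barcodes (82.5% to 93.9%), in 0 of 64 macrophage-rule barcodes, which allows a share of up to 4.69%, and in 1.62% of the remaining barcodes. Hp was found in 89.9%, 18.8% and 2.68% of the 3 groups. Scgb3a1 was found in 58.1% of club-like barcodes and Cyp2f2 in 45.0%, against 0.277% and 0.0924% of the remaining ones. Without thinning these shares in all 214 club-like barcodes were 88.8% for Scgb3a2, 92.1% for Hp, 53.7% for Scgb3a1 and 48.6% for Cyp2f2. Hes1 was found in 31.0%, 1.56% and 4.39% of the 3 groups. Cd74 was found in 70.5% of club-like barcodes (61.9% to 78.2%) and 85.9% of macrophage-rule barcodes, but in only 1.29% of the remaining ones.

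**Figure D4:**
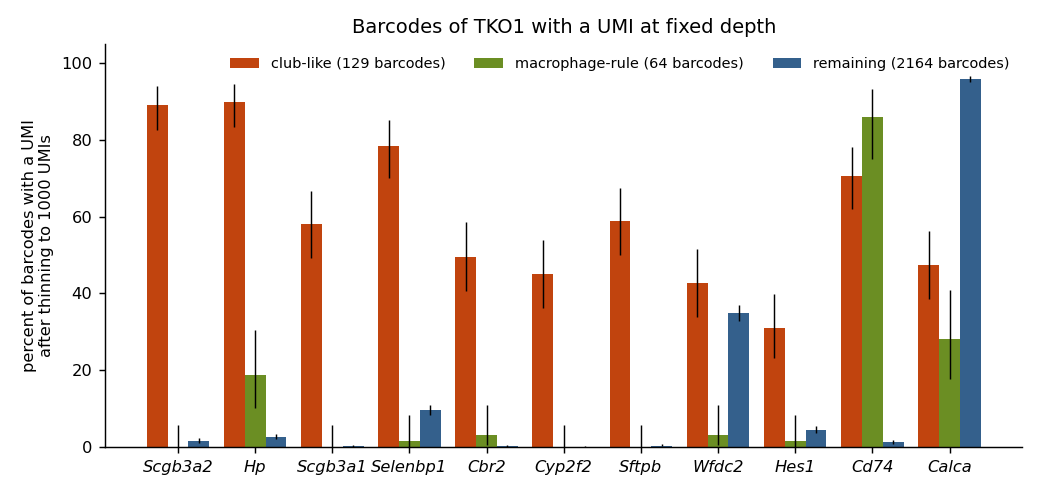
Percent of barcodes of TKO1 with at least 1 UMI of each gene after thinning to 1000 UMIs, with exact 95% binomial intervals, in club-like, macrophage-rule and remaining barcodes. Secretoglobins, Hp and enzymes are found mainly in club-like barcodes, Cd74 in club-like (70.5%) and macrophage-rule barcodes (85.9%), and Calca in 96.0% of the remaining barcodes and 47.3% of the club-like ones.

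Stress and secretory pathway genes lay near the median gene in TKO1. Of 10 immediate early and stress genes, which respond to dissociation, 0 were at least 2-fold higher and 1, Atf3, was lower in TKO1 (median −0.40), with Fos at 2290 and 3564 CPM. In TKO2 the same list summed to 8974 CPM in club-like barcodes and 2524 CPM in others, against 13119 and 16765 CPM in TKO1, with Junb at 2230 and 204 CPM. Fos stood at 1558 and 473 CPM in TKO2, but 28 of its 58 UMIs lay in 1 club-like barcode, and it stood at 865 CPM without that barcode. Of 11 genes of the secretory pathway, 0 were at least 2-fold higher and 2 were lower (median −0.45), with the chaperone Hspa5 at 275 and 587 CPM. Relative to the median gene 1 was higher and 0 were lower. The cell cycle list had a median of −1.24, or −0.56 relative to the median gene. Of 12 genes, 8 were at least 2-fold lower in CPM (33.7% of all genes were). Relative to the median gene 2 were (10.8% of all genes). Without the 77 club-like barcodes of at least 0.5% neuroendocrine RNA, the median of this list was −2.64 and that of all genes −1.07. Mki67, the proliferation marker, had 9 UMIs in club-like barcodes (30.1 against 76.7 CPM) and Top2a had 17 (56.9 against 156 CPM). Of these UMIs, 2 of Mki67 and 5 of Top2a lay in the 137 club-like barcodes with less neuroendocrine RNA. Of the conditional genes, Rb1 stood at 40.2 and 75.5 CPM and Trp53 at 30.1 and 48.8 CPM in TKO1, less than 2-fold apart with all club-like barcodes. All 12 Rb1 UMIs lay in the 77 club-like barcodes with at least 0.5% neuroendocrine marker UMIs, described below, and the other 137 held 0 among 183958 UMIs, a log2 ratio to the others of −2.21 or lower with 3 UMIs as the floor. Trp53 had 6 UMIs in these 137 barcodes and 3 in the 77, 32.6 and 26.1 CPM. Rbl2 had 2 UMIs in club-like barcodes. RNA from the undeleted parts of these genes is counted too.

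The lowest genes were led by macrophage RNA. Of the 20 genes with the smallest ratio in TKO1, 8 were in the macrophage list and 5 had 0 UMIs in club-like barcodes. Lyz2, a lysozyme, stood at 6.70 and 774 CPM in TKO1 (log2 ratio −6.85, −9.90 to −5.00), and C1qb had 0 UMIs against 114 CPM, at least 11.4-fold lower. In macrophage-rule barcodes Lyz2 stood at 26135 CPM. Of the 20 genes, 17 were compared in TKO2 and 3 were at least 2-fold lower there. Fibroblast and lymphocyte genes did not reach the level for comparison, and Vwf was the only gene of the endothelial list that did (184 and 567 CPM in TKO1). In the 77 club-like barcodes with more neuroendocrine RNA, described below, Vwf had 52 UMIs (453 CPM). The other 137 held 3 (16.3 CPM).

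Neuroendocrine RNA was lower in club-like barcodes than in others of TKO1, but present. Of 15 neuroendocrine markers compared in TKO1, 14 were at least 2-fold lower in club-like barcodes and 0 higher (median −1.73), and 11 were lower relative to the median gene. The 18 markers summed to 7187 CPM in club-like barcodes, 24361 CPM in the remaining barcodes and 1746 CPM in macrophage-rule barcodes of TKO1. Syp, Stmn2 and Grp had 0 UMIs in club-like barcodes. Calca, the gene of the neuropeptide CGRP and the most abundant marker, stood at 5055 and 16490 CPM. Calca was also found in 28.1% of macrophage-rule barcodes at the fixed depth, against 47.3% of club-like ones. In TKO2 the typical club-like barcode held less of it and the sum did not. The median share was 0% in club-like barcodes, of which 12 of 22 held no marker UMI, and 0.220% in others, of which 331 of 3789 held none. The markers nonetheless summed to 2848 CPM in club-like barcodes and 2420 CPM in others, and to 2375 CPM without the club-like barcode that held most. Of the 44 Calca UMIs in club-like barcodes of TKO2, 84.1% lay in 3 barcodes. A share of 0.5% was reached by 6 of the 22 (27.3%) and by 8.97% of the others.

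The neuroendocrine RNA was not spread evenly over the club-like barcodes. Its share of a barcode ran from 0% to 6.59% with a median of 0.0989% in TKO1, and 87 of 214 barcodes held none. Of the 122 club-like barcodes of TKO1 with at least 20% Scgb1a1, 8 (6.56%) had a neuroendocrine share of at least 0.5% and 76 held no UMI of the 18 markers. Of the 92 below 20% Scgb1a1, 69 (75.0%) reached 0.5% and 11 held none. The median number of UMIs other than Scgb1a1 was 677.5 in the barcodes with at least 20% and 1018 in those below. In TKO2, 2 of 12 and 4 of 10 barcodes reached 0.5% on the 2 sides of the same line.

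**Figure D5:**
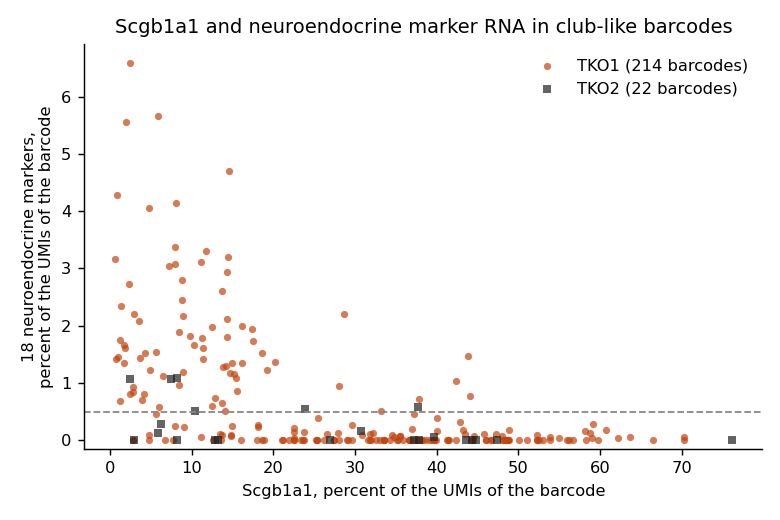
Percent of a barcode's UMIs in 18 neuroendocrine markers (vertical) against percent in Scgb1a1 (horizontal) for the 214 club-like barcodes of TKO1 and the 22 of TKO2, with 0.5% as a dashed line. Barcodes below 20% Scgb1a1 lie mostly above the line in TKO1 (69 of 92), and 8 of the 122 at or above 20% do.

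Split at 0.5%, 137 club-like barcodes of TKO1 had less neuroendocrine RNA, with a median of 36.6% Scgb1a1 and 436 genes, and 77 had more, with 9.82% and 706 genes. The median depth was 1149 and 1155 UMIs. Cyp2f2 stood at 1337 CPM on the side with less neuroendocrine RNA and 340 CPM on the other, Cyp4b1 at 419 and 69.7 CPM, Hes1 at 728 and 314 CPM, and Cd74 at 2549 and 1124 CPM. Krt18 stood at 1582 and 2971 CPM. Calca, which is part of the split, stood at 348 and 12600 CPM. Wfdc2 was alike at 919 and 784 CPM. On the side with more, Cyp2f2 was still far above the 0.804 CPM of the other barcodes. Scores of Scrublet, which looks for droplets with 2 cells, lay above the tumor's 95th percentile in 8 of the 137 and 17 of the 77. The caller itself marked 0 barcodes of TKO1 as doublets, so it cannot be relied on here, and the part that droplets with 2 cells or free RNA have in these values was not tested. With the 77 barcodes left out, 462 genes were at least 2-fold higher and 3012 lower.

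Club-like barcodes also differed in their secretory genes. Scgb3a2 ran from 0 to 159 UMIs per barcode in TKO1 with a median of 9, and Scgb3a1 from 0 to 137 with a median of 1. The 22 barcodes with most of each gene held 39.5% of all Scgb3a2 UMIs, 35.7% of Hp, 50.5% of Cyp2f2, 65.2% of Scgb3a1 and 73.5% of Lcn2, so that Scgb3a1 and Lcn2 were the more concentrated. Thinned to 500 UMIs other than Scgb1a1 (164 barcodes, 50 left out), Scgb3a2 went with Scgb3a1 (Spearman's rho 0.53) and with Hp (0.56). Upk3a went about equally with Scgb3a1 (0.41), Scgb3a2 (0.43) and the summed xenobiotic list (0.46). Scgb3a1 and Cyp2f2 had a rho of only 0.09 at a mean of 0.799 Cyp2f2 UMIs per barcode, which is sparse. The Scgb1a1 share of a barcode went with Scgb3a2 (0.76) and with the summed xenobiotic list (0.70), and against the summed neuroendocrine markers (−0.60). These are descriptions over barcodes of 1 library that share depth and free RNA.

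The club-like barcodes of the 2 tumors could be compared within the wide error of 37219 UMIs in TKO2. Hp (5530 CPM in TKO1 and 4890 CPM in TKO2) and Scgb3a2 (12667 and 13004 CPM) differed by less than their counting error. Scgb3a1 was higher in TKO1 (5236 and 3036 CPM, log2 ratio 0.79, 0.51 to 1.07). In TKO2, 33 of its 113 UMIs lay in 1 barcode, and without that barcode the level was 2239 CPM. Cyp2f2 was higher in TKO2 (954 and 2176 CPM, −1.19, −1.55 to −0.82). Without the barcode of TKO2 that held 24 of its 81 UMIs, Cyp2f2 stood at 1854 CPM there. In the 137 club-like barcodes of TKO1 with less neuroendocrine RNA it stood at 1337 CPM. Cxcl17, a chemokine of mucosal surfaces, was also higher in TKO2 (241 and 618 CPM, −1.36, −2.05 to −0.61). Of the 23 Cxcl17 UMIs of TKO2, 14 lay in 1 barcode, the one that also held most of the ciliated marker UMIs, and without it the level was 254 CPM. Hes1 was higher in TKO1 (569 and 215 CPM, 1.40, 0.39 to 2.64), as was Calca (5055 and 1182 CPM, 2.10, 1.66 to 2.56). The higher Calca level of TKO1 lay in the 77 club-like barcodes with more neuroendocrine RNA (12600 CPM). In the other 137 Calca stood at 348 CPM, below the level of TKO2. Some levels of TKO2 given above rested on 1 barcode in good part, and without the barcode that held most they were 196 CPM for Cyp4b1, 86.8 CPM for Gsta4 and 167 CPM for Lcn2, all far above the others. With 1 mouse a side, these intervals say nothing of the spread between mice.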

How the data were processed

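Single-cell 3′ RNA libraries of 2 tumors, 1 library each, were analysed from the deposited matrices of UMI counts per gene and barcode, which the authors had not normalized; the submitters' processing notes name Cell Ranger, Seurat and mm10, with no versions given in the sources used here. Per the labels, each matrix is 1 mouse tumor. The 27998 genes were used as named in the files, and positions came from GENCODE M21.

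The members and the 28 gene lists were chosen with earlier results of these data known. UMI counts were summed per tumor and group and scaled to CPM. Levels have exact Poisson intervals and log2 ratios exact conditional binomial intervals (95%), and a group at 0 was set at 3 UMIs over the group, with no fold given where this set no bound. Genes with an average of at least 20 CPM were compared, and at least 2-fold was called. This average lets a gene pass through the group in which it is high, so counts over lists are descriptions. The text names genes of the lists, the 30 largest and the 20 smallest ratios in TKO1 (of genes that reached 100 CPM on either side), and Scgb1a1, and Upk3a was chosen after its values were seen. For shares of barcodes, each barcode was thinned without replacement to 1000 UMIs (seed 1), and 500 and 2000 were tried. Doublets were kept, since Scrublet (scanpy 1.11.5) called 0 and 1 barcodes in the 2 tumors. The TMM alternative used edgeR 4.0.16 in R 4.3.3 on the 2 sums, for factors only. Python 3.11.15, numpy 2.4.6, scipy 1.17.1 and pandas 2.3.3 did the rest. The scripts were tested on simulated data. Trac and Cebpd were not analysed here, and 1 listed gene is not reported here.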

Additional observations from a re-analysis of the deposited data

Results flagged for a closer look

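Flagged here are 6 of the genes at least 2-fold apart in opposite directions in the 2 tumors. The difference between the tumors was not tested, because each tumor has 1 library. They are not all such genes, since Atf3, Tead1, Chgb and Cplx2 were too, on 4 to 6 UMIs in the club-like barcodes of TKO2. Of the 6 flagged genes, 3 are ciliated cell genes. 1110017D15Rik had a log2 ratio of −3.25 in TKO1 and 5.15 in TKO2, Tppp3 of −1.80 and 3.49, and Fam183b of −2.04 and 4.38. Of 38 ciliated marker UMIs in the club-like barcodes of TKO2, 31 came from 1 barcode, which held 51 Scgb1a1 UMIs among 1734. In TKO1, 31 such UMIs lay in 21 club-like barcodes, with at most 3 in any of them. Without that 1 barcode of TKO2 the ratio of Tppp3 there was 0.38, that of 1110017D15Rik was 3.22 on 1 UMI, and Fam183b had 0 UMIs.

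The other flagged genes were Calca (−1.71 in TKO1 and 3.94 in TKO2), the neuroendocrine secretory gene Resp18 (−1.93 and 3.14) and the keratin Krt8 (−1.30 and 1.25). With all club-like barcodes, the ratio of Krt8 in TKO1 relative to the median gene was −0.62. In the 137 with less neuroendocrine RNA, Krt8 stood at 321 against 1417 CPM in others. Without the barcode of TKO2 that held 8 of its 25 Krt8 UMIs, the level there was 553 against 283 CPM, less than 2-fold higher. Calca was found in 6 of the 22 club-like barcodes of TKO2, and 3 of them held 84.1% of its 44 UMIs. The level of Calca in the barcodes compared with was 16490 CPM in TKO1 and 77.0 CPM in TKO2.

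Outside the barcodes used, 14 of the 18 barcodes of TKO1 with 200 genes or fewer held at least 10 Scgb1a1 UMIs, with up to 426 in 1 barcode. TKO2 had 5 barcodes with 200 genes or fewer, and 0 of them held as many.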

How the results depend on the processing

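No paired analysis was possible because each tumor has 1 library and no replicates, and no replicate could be left out. The main limits are 1 mouse per tumor, 22 club-like barcodes in TKO2, and a scale on which Scgb1a1 takes much of each club-like barcode. No named gene at least 2-fold apart in TKO1 changed sign under the alternatives run. Counts of genes at least 2-fold higher and lower in TKO1 (354 and 2040) became 994 and 920 with the total taken without secretoglobin, mitochondrial and ribosomal protein genes, and 758 and 704 with TMM factors, so that higher genes were 14.8% of the calls in CPM and 51.9% and 51.8% on these scales. They were 171 and 1029 at an average of at least 50 CPM, 860 and 3559 with a minimum of 10 UMIs in all only, and 213 and 359 at 4-fold, where 1 list had a median as far below. The log2 ratio of Scgb3a2 (9.41) was 9.72 against others with 0 Scgb1a1 UMIs, 9.97 on both other scales and 9.75 without the barcodes of at least 0.5% neuroendocrine RNA, an alternative chosen after seeing the data, as were those on shared first bases and on the barcode of TKO2 that held most of a gene. That of Scgb3a1 (10.42) was 11.69 against others with 0 Scgb1a1 UMIs. With more than 500 genes required, club-like barcodes were 3.45% of TKO1. At 500 UMIs Scgb3a1 was found in 43.5% and Hp in 83.2% of club-like barcodes, and at 2000 UMIs Hp in 95.6% and Calca in 77.8%. For these values the cause was not tested, beyond fewer genes or UMIs under stricter limits. Of 216 named genes compared, 216 stayed within their main interval with Scgb1a1 at 1% of UMIs, 192 with more than 500 genes, and 120 and 121 on the 2 other scales. Without macrophage-rule barcodes 4 named genes had no value. Medians of lists moved too, from 2.97 to 7.01 for xenobiotic metabolism (3.34) and from −1.61 to 2.03 for the Notch pathway (−0.62).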

Other observations

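The similarity of barcodes lay at their start. In TKO1, 17 of 342 pairs with the same first 11 bases were both club-like, while 0 of 107 pairs with the same last 11 bases were both club-like and 13 held 1 club-like barcode. In TKO2, 0 of 250 pairs with the same first 11 bases held a club-like barcode. With the first 12 bases the counts in TKO1 were 9 of 123 pairs. What these pairs are was not tested.

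Among genes in no list, Rasl11a, a small GTPase of the Ras family, stood at 954 CPM in club-like barcodes and 4.82 CPM in others of TKO1, and at 1021 and 28.5 CPM in TKO2. Clic3, a chloride channel protein, stood at 238 and 1.81 CPM in TKO1 and at 269 CPM in the club-like barcodes of TKO2, where the others had 0 UMIs.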
